A study of Mus musculus with 12 samples.

Results

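MYC and ribosome biogenesis genes are described here in RAW264.7 cells, a mouse macrophage line. The set holds 49 genes: Myc itself and 48 genes for proteins that make ribosomes in the nucleolus. Members were chosen by symbol from what the genes are known to do, and each of the 49 was found among the 56941 gene IDs of the count table. The choice was made with earlier results of these data known, so the direction of the members is not independent evidence. Compressed macrophages (6 libraries) had spent 24 hours on a porous insert under an agarose cushion and a 3D-printed weight that applied 0.14 kPa. Uncompressed controls (6 libraries) had carried the cushion without the weight for the same 24 hours. All 12 libraries were therefore of agarose-covered cells of 1 line. The sources used here do not say whether the replicates were cultured separately, and p-values therefore reflect the variation among these libraries, which may be technical.

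MYC is a transcription factor that pairs with MAX and binds E-box sequences in promoters. Genes for ribosome production are among its best known targets in proliferating cells. In the nucleolus, RNA polymerase I transcribes a long precursor, small nucleolar ribonucleoproteins (snoRNPs) guide its chemical modification, and assembly factors, helicases and GTPases fold and cut it into the RNAs of the small and large ribosomal subunits. MYC is induced in macrophages by growth factors and by some activating signals.

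Myc was higher in compressed macrophages, and most of the nucleolar genes were lower. Genes were called by edgeR's quasi-likelihood test when p, adjusted over all 15001 tested genes by the method of Benjamini and Hochberg, did not exceed 0.05. By this rule 42 of the 49 members were lower, 1 was higher (Myc) and 6 were not called. In the same comparison 21.9% of all tested genes were called lower and 24.5% higher, 46.4% in either direction. The median log2 fold change of the members was -0.48, beside 0.02 over all tested genes. For 36 members every compressed library lay below every control, which held for 17% of all tested genes, and for Myc every compressed library lay above every control, which held for 16.5%. All 49 members passed the filter on low counts.

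Libraries held 33460807 to 39103987 counts in compressed macrophages and 37948795 to 40463545 in controls. The 49 genes took 0.684% to 0.782% of each compressed library and 1.01% to 1.07% of each control. In bulk RNA, fewer cells of a kind and less RNA per cell cannot be told apart. Macrophage markers (9 of 9) were expressed, with Lyz2 at 4204 CPM in compressed macrophages and 2678 CPM in controls. Of the 9 markers 4 were called higher and 3 lower (Csf1r, Cd68 and Fcgr1), beside 24.5% and 21.9% of all tested genes. CPM is the usual unit of counts relative to library size, here after TMM scaling of that size. Of 10 markers of fibroblasts, lymphocytes, epithelium and endothelium, only Pecam1 passed the filter, at 0.549 CPM in compressed macrophages and 0.320 CPM in controls, and Col3a1 and Cd3e had 0 counts in every library. Compressed replicate 6 stood apart from the other 5 compressed libraries in many members, so results are also given without it. With that library left out, 47 members were lower, Myc was higher, Polr1c was not called, and the median of the members was -0.54. Calls rose over all genes as well in that fit, to 32.2% lower and 33.8% higher.

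**Figure D1:**
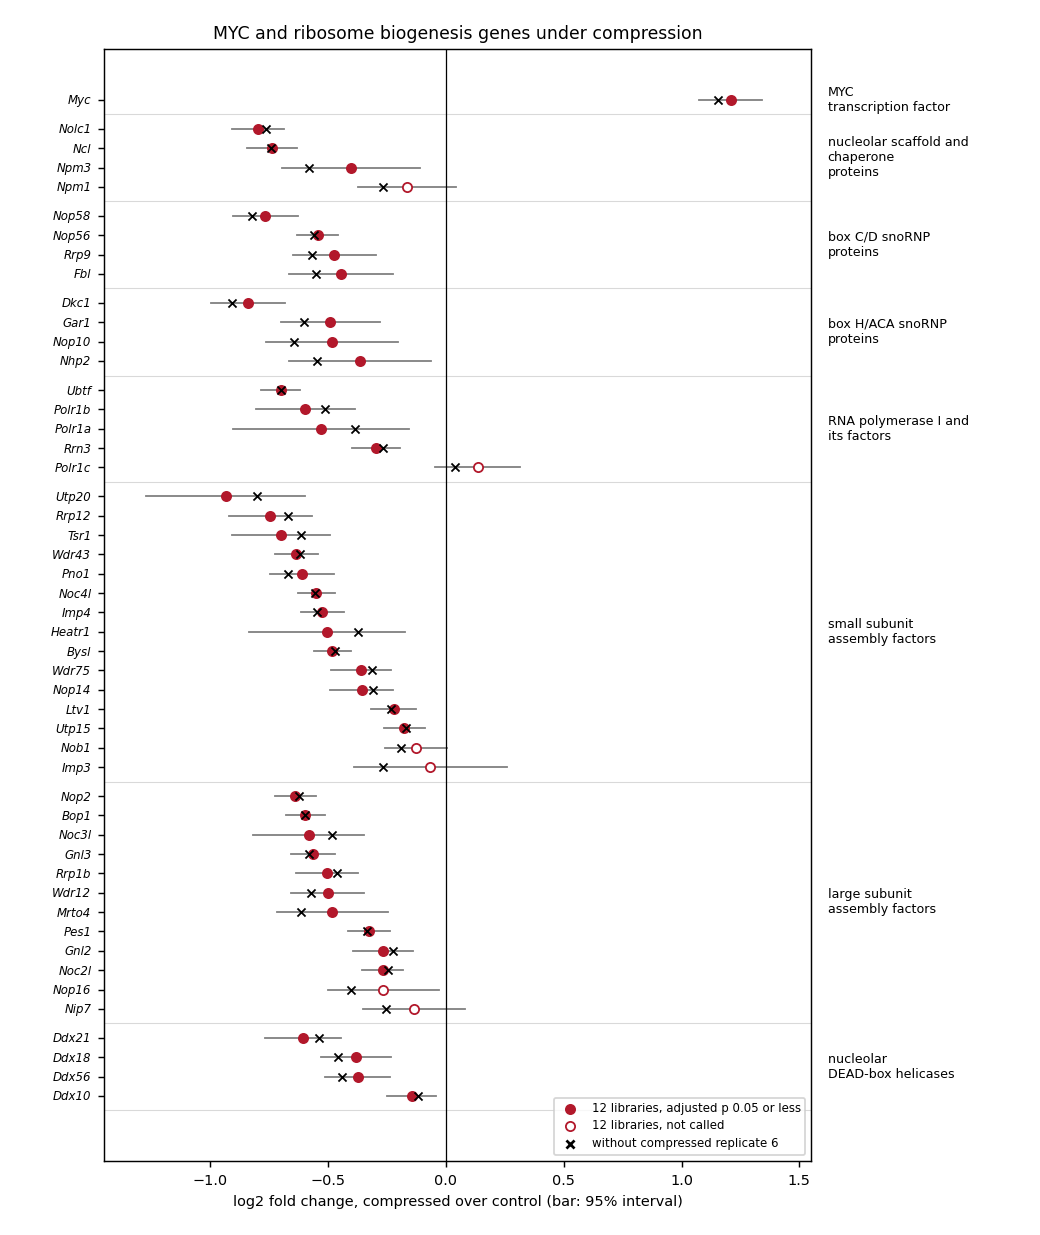
Log2 fold change of each of the 49 genes (horizontal axis, compressed over control, bar for the 95% interval), grouped by role from top to bottom; filled points were called at an adjusted p of 0.05 or less, open points were not, and crosses give the value without compressed replicate 6. Myc stands far to the right at 1.21, and 47 of the 49 points lie left of 0.

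Promoter sequences are shown first because the core E-box, CACGTG, is the sequence that MYC with MAX is known to prefer. Windows of 250 bases before and 50 bases after the annotated start came from RefSeq on GRCm38.p6, an earlier assembly than the GRCm39 that the submitters name, and matched 43 of the 49 members. Bop1, Fbl, Gnl2, Myc, Npm1 and Rrp12 had no matched window. The motif reads the same on both strands and was counted once per site. A gene was counted when any of its windows held the motif. That was so for 9 of the 43 matched members (20.9%), for 8.09% of the 27025 genes of the RefSeq table, and for 11.8% of the 9631 tested genes in that table. The median log2 fold change was -0.61 for the 9 members with the motif and -0.48 for the 34 without. A match is a description of the letters, not a measured binding site. Sites are printed for 7 of the 9 members on their own strand, 5′ to 3′, with the E-box in capitals.
Utp20, chr10:88826765-88826789, minus strand: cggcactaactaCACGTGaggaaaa
Tsr1, chr11:74898092-74898121, plus strand: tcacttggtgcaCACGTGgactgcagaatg
Wdr43, chr17:71616220-71616249, plus strand: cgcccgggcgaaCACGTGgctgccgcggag
Pno1, chr11:17211540-17211564, minus strand: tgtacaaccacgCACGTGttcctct
Imp4, chr1:34439696-34439725, plus strand: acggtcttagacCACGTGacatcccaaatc
Pes1, chr11:3963965-3963994, plus strand: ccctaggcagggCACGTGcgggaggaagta
Ltv1, chr10:13193092-13193121, minus strand: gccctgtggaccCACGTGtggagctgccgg

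The remaining members with the motif were Nop2 and Rrn3, printed with the 250 bases before their starts to show E-boxes in their wider promoter sequence. In Nop2 the E-box begins at position -60, counted from the start of transcription with the base before it as -1. The Imp4 site also lies before the start, at -121, and those of the other 6 genes printed above lie after it, at 3 to 38. Rrn3 was the only member with a pair of E-boxes, at -215 and -48.
Nop2, chr6:125131633-125131882, plus strand: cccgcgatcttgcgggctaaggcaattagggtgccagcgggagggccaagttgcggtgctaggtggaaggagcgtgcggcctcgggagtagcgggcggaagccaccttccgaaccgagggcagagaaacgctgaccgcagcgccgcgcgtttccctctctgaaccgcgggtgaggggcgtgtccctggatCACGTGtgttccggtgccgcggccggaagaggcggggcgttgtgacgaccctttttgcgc
Rrn3, chr16:13780449-13780698, plus strand: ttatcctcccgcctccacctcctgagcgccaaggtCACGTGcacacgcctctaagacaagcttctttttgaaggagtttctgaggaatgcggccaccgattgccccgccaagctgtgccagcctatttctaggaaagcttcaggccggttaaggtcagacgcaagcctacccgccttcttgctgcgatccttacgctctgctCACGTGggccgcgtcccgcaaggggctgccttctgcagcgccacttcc
All 9 genes with the motif were called lower in compressed macrophages, but so were 42 of the 49 members (85.7%). The log2 fold changes of the 9 ran from -0.93 (Utp20) to -0.22 (Ltv1). The gene with a pair of E-boxes, Rrn3, was near the small end at -0.30.

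Myc had 57.4, 50.5, 54.0, 58.2, 56.5 and 66.5 CPM in compressed replicates 1 to 6, against 24.7, 26.3, 25.5, 23.9, 24.9 and 23.2 CPM in control replicates 1 to 6. The lowest compressed library was far above the highest control. Its mean was 57.2 ± 5.38 CPM in compressed macrophages and 24.8 ± 1.10 CPM in controls (SD, n = 6 each), a log2 fold change of 1.21 (standard error 0.06, edgeR adjusted p = 4.97e-09). Compressed replicate 6 was the highest, and without it the log2 fold change was 1.16.

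Mycn, the family member that also pairs with MAX and reads the same E-box, was singled out after its values were seen. It had 604.9, 609.9, 591, 621, 588 and 569 CPM in compressed replicates 1 to 6, against 646, 636, 664, 702, 700.4 and 681 CPM in controls, a log2 fold change of -0.17 (edgeR adjusted p = 0.00489). Every compressed library was below every control, by a small margin, and Mycn was far the more abundant of the pair. Per kilobase of annotated transcript, Mycn had 229.9 ± 7.04 CPM in compressed macrophages and 259 ± 10.6 CPM in controls, and Myc had 32.4 ± 3.05 CPM in compressed macrophages and 14.02 ± 0.622 CPM in controls (SD, n = 6 each). The sum of the pair on this scale lay between 257 and 272 CPM per kilobase in compressed libraries and between 259.7 and 284 in controls, so the groups overlapped in the sum. Myc made up 10.9% to 14.7% of it in compressed libraries and 4.77% to 5.73% in controls.

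MAX and the proteins that compete for it form the rest of the network. Of 18 tested partners, antagonists and regulators of MYC, 4 (22.2%) were higher and 5 (27.8%) were lower. Those shares were near the 24.5% and 21.9% of all tested genes, and the median log2 fold change of the 18 was -0.02. The largest increases were of Mxd1 and Mxi1, which encode repressors that pair with MAX in place of MYC. Mxd1 had 15.5, 12.7, 14.1, 14.5, 14.9 and 12.3 CPM in compressed replicates 1 to 6, against 7.51, 8.65, 7.09, 7.99, 6.60 and 6.98 CPM in controls (log2 fold change 0.90, edgeR adjusted p = 6.92e-07). Mxi1 had 147 ± 7.50 CPM in compressed macrophages and 83.5 ± 3.78 CPM in controls (SD, n = 6 each; log2 fold change 0.81, edgeR adjusted p = 1.64e-08). The groups did not overlap in either gene. Mxd4, of the same family, was also higher (0.53), as was Mlx (0.17), a partner of the related MXD and MONDO proteins. Among the 5 lower genes were Mxd3 (-0.89), which had only 1.48 CPM in compressed macrophages and 2.76 CPM in controls, and Tfap4 (-0.78), an E-box factor known as a MYC target. Max had a log2 fold change of -0.06 and was not called (edgeR adjusted p = 0.499). Without compressed replicate 6, 9 of the 18 were higher and 7 lower, where 33.8% and 32.2% of all tested genes were. The median of the 18 was then 0.10.

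**Figure D2:**
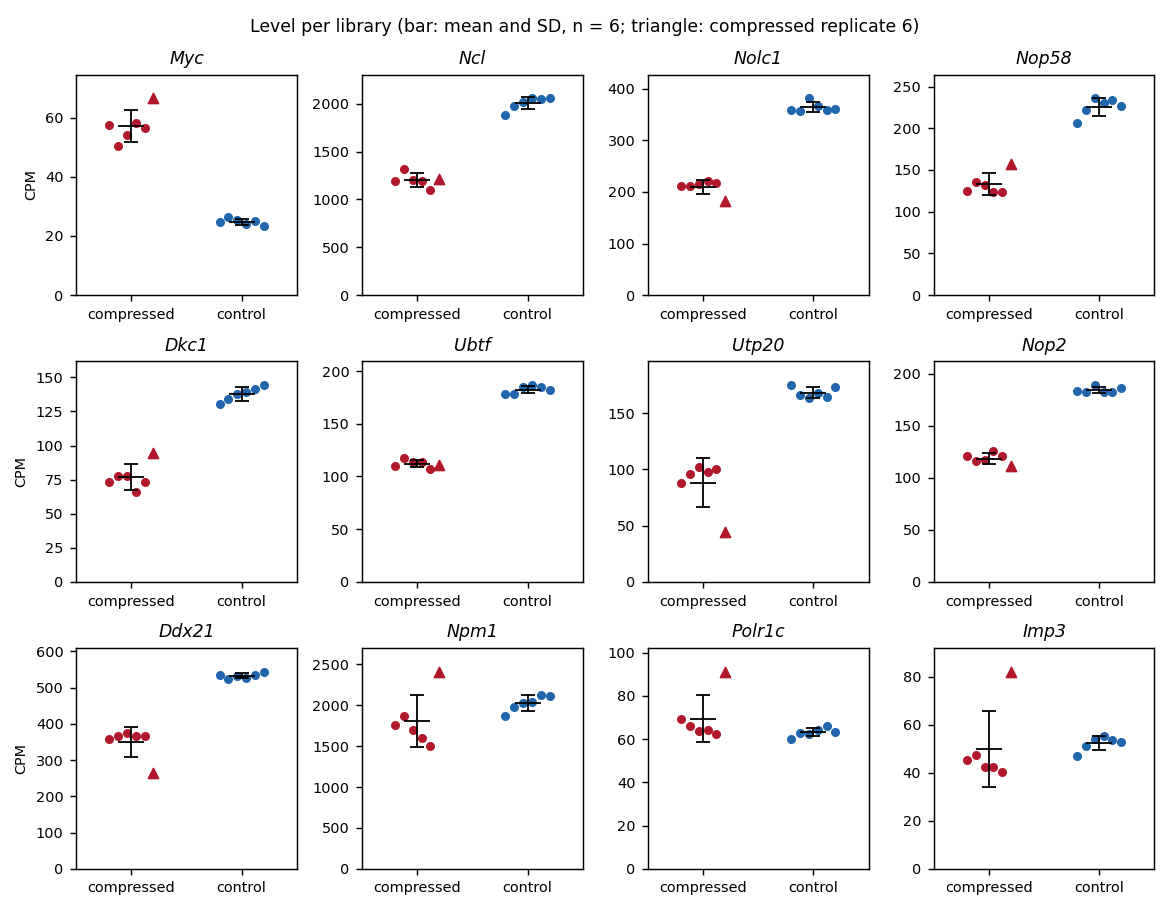
CPM in each library for 12 members (vertical axes from 0), compressed on the left and control on the right of each panel, with the mean and SD of 6 libraries; triangles mark compressed replicate 6. The groups are apart in the panels of Myc, Ncl, Nolc1, Nop58, Dkc1, Ubtf, Utp20, Nop2 and Ddx21, and overlap in Npm1, Polr1c and Imp3, where the triangle is the highest point.

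The nucleolar scaffold and chaperone genes include the most abundant members. Ncl (nucleolin), an RNA-binding protein of the nucleolus, had 1194, 1319, 1208, 1189.6, 1101 and 1218 CPM in compressed replicates 1 to 6, against 1887, 1982, 2019, 2059.6, 2048 and 2060.2 CPM in controls. All compressed libraries were below all controls, and compressed replicate 6 lay among the rest. Ncl fell by 40.0% (log2 fold change -0.74, standard error 0.05, edgeR adjusted p = 4.09e-08). Nolc1, which escorts snoRNPs, had 211, 212, 216, 221, 217 and 182 CPM in compressed macrophages, against 359, 357, 382, 368, 359.6 and 361 CPM in controls (-0.80, edgeR adjusted p = 3.11e-08). Npm3 was called lower at -0.40 with an edgeR adjusted p of 0.0263, although compressed replicate 6, at 75.6 CPM, was above every control. Npm1 (nucleophosmin), a histone and ribosomal protein chaperone, was the most abundant member, with 1763, 1869.5, 1699, 1601, 1499 and 2408 CPM in compressed macrophages and 1866, 1982, 2029.8, 2043, 2123 and 2112 CPM in controls. It was not called (-0.17, edgeR adjusted p = 0.182), and without compressed replicate 6, which lay above every control, it was called lower at -0.27. Npm1 has many processed pseudogenes, and how reads shared with them were counted is not given in the sources used here, so its level is uncertain.

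Genes for snoRNP proteins were all called lower, 4 of 4 for box C/D and 4 of 4 for box H/ACA. That call held for 21.9% of all tested genes. Box C/D particles guide ribose methylation by fibrillarin (Fbl), and box H/ACA particles guide pseudouridylation by dyskerin (Dkc1). Nop58, a core box C/D protein, had 125, 136, 132, 124, 124 and 157 CPM in compressed replicates 1 to 6, against 207, 222, 236, 230.4, 234 and 226 CPM in controls (-0.77, edgeR adjusted p = 3.93e-07). Nop56, its core partner and the more abundant of these genes, had 214 ± 7.63 CPM in compressed macrophages and 312 ± 8.00 CPM in controls (SD, n = 6 each; -0.54, edgeR adjusted p = 1.19e-07). Rrp9, which binds the U3 RNA, was at -0.47 and Fbl at -0.44. Fbl had 156 CPM in compressed replicate 6, within the range of its controls.

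Dkc1 had 73.2, 77.8, 77.5, 66.3, 73.0 and 94.7 CPM in compressed macrophages, against 130.2, 134, 138, 139, 142 and 144 CPM in controls, and the groups were well apart (-0.84, edgeR adjusted p = 5.98e-07). Gar1 (-0.49), Nop10 (-0.48) and Nhp2 (-0.36) encode the other core proteins of the box H/ACA particle. Nhp2, the most abundant of this group at 118 ± 34.8 CPM in compressed macrophages and 152 ± 5.57 CPM in controls (SD, n = 6 each), was the least secure. Its adjusted p by edgeR was 0.0475, and compressed replicate 6 had 188 CPM where the other compressed libraries had 94.7 to 109. For Nop10 compressed replicate 6, at 80.3 CPM, was above every control, and for Gar1, at 55.8 CPM, it lay within their range. Without that library Nhp2 was at -0.55, Gar1 at -0.60 and Nop10 at -0.65.

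RNA polymerase I transcribes the ribosomal RNA genes. Ubtf, the HMG-box factor that keeps those genes open, had 110.2, 118, 113, 114, 107 and 111 CPM in compressed replicates 1 to 6, against 178, 178, 184, 187, 185 and 182 CPM in controls. The compressed values were tight, replicate 6 included, and lay well below the controls (-0.70, standard error 0.04, edgeR adjusted p = 6.92e-09). Polr1b (-0.60) and Polr1a (-0.53), the catalytic core subunits, and Rrn3 (-0.30), which brings the polymerase to the promoter, were also lower. Polr1a had 111 to 132 CPM in compressed replicates 1 to 5 and 51.2 CPM in compressed replicate 6, so its value without that library was -0.38.

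Polr1c, a subunit that RNA polymerases I and III share, was the exception in this group. It had 69.1, 66.1, 63.9, 64.0, 62.3 and 91.0 CPM in compressed macrophages and 60.2, 63.0, 62.3, 64.1, 66.2 and 63.2 CPM in controls. The groups overlapped (log2 fold change 0.14, 95% interval -0.04 to 0.32, edgeR adjusted p = 0.206). Without compressed replicate 6 it was at 0.04 (edgeR adjusted p = 0.282).

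Small subunit assembly factors were called lower in 13 of 15 cases, beside 21.9% of all tested genes. Their median log2 fold change was -0.50. Utp20, a large scaffold protein of the early precursor, was the lowest of all 49 members. It had 88.0, 95.6, 102, 98.1, 100.03 and 44.5 CPM in compressed replicates 1 to 6, against 175, 166, 163, 168, 164 and 173 CPM in controls (-0.93, standard error 0.16, edgeR adjusted p = 2.36e-04). Compressed replicate 6 was far under the others, and the value without it was -0.80, which left Dkc1 and Nop58 lower than Utp20. Wdr43, the most abundant gene of the group, had 135 ± 5.08 CPM in compressed macrophages and 210.1 ± 6.62 CPM in controls (SD, n = 6 each; -0.63, edgeR adjusted p = 4.04e-08).

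Wdr43, Heatr1 (-0.50), Wdr75 (-0.36) and Utp15 (-0.18) encode subunits of a complex that, in yeast and human cells, binds the nascent precursor first. All 4 were called lower, as were 21.9% of all tested genes, and their changes covered a wide range. Imp4 was lower at -0.52, whereas Imp3, which joins it on the U3 particle, was not called at -0.07 (edgeR adjusted p = 0.75). Imp3 had 40.5 to 47.3 CPM in compressed replicates 1 to 5 and 81.9 CPM in compressed replicate 6, against 46.9 to 55.3 CPM in controls, and it was called lower (-0.26) when replicate 6 was left out.

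Some factors act late on the small subunit, on its way to the cytoplasm. Rrp12 (-0.75), Tsr1 (-0.70), Pno1 (-0.61) and Bysl (-0.48) were lower, and Ltv1 was lower by less (-0.22). Nob1, the endonuclease that makes the final cut of 18S ribosomal RNA, was at -0.13 and was not called (edgeR adjusted p = 0.11), but it was called lower at -0.19 without compressed replicate 6. The 18S cut of Nob1 needs Pno1 as its partner, and that partner had 51.8 ± 5.11 CPM in compressed macrophages and 79.1 ± 3.35 CPM in controls (SD, n = 6 each). Noc4l (-0.55) and Nop14 (-0.36), whose yeast counterparts bind each other, were lower as well.

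Large subunit assembly factors were called lower in 10 of 12 cases, beside 21.9% of all tested genes. Their median log2 fold change was -0.49. Nop2, a methyltransferase of 28S ribosomal RNA, had 121, 116, 117, 125, 121 and 111 CPM in compressed replicates 1 to 6, against 183, 183, 189, 183, 182 and 186 CPM in controls (-0.64, standard error 0.04, edgeR adjusted p = 2.66e-08). The groups were far apart and replicate 6 was only slightly under the rest. Pes1, Bop1 and Wdr12 form a complex needed for 28S and 5.8S processing, and its subunits were unequally lower. Bop1 was at -0.60 (95% interval -0.68 to -0.51), Wdr12 at -0.50 (-0.66 to -0.35) and Pes1 at -0.33 (-0.42 to -0.24).

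Gnl3 (nucleostemin), a nucleolar GTPase, was at -0.56 and its relative Gnl2 at -0.27. Noc3l was at -0.58 and Noc2l, which binds it, at -0.27, although Noc2l was the most abundant of this group with 236 ± 9.31 CPM in compressed macrophages and 283 ± 5.56 CPM in controls (SD, n = 6 each). Rrp1b (-0.51) and Mrto4 (-0.48) were also lower, although Mrto4 in compressed replicate 6, at 82.7 CPM, lay within the range of its controls. Nop16 was at -0.27 and narrowly missed the threshold (edgeR adjusted p = 0.0618), and Nip7 was at -0.13 (edgeR adjusted p = 0.298). In both genes compressed replicate 6 lay above every control, and both were called lower without it.

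The nucleolar DEAD-box helicases unwind RNA in the precursor particles, and 4 of 4 were called lower, beside 21.9% of all tested genes. Ddx21, the most abundant, had 359, 367, 374, 367, 366 and 265 CPM in compressed replicates 1 to 6, against 534, 523, 533, 525.9, 534 and 543 CPM in controls (-0.61, standard error 0.07, edgeR adjusted p = 1.51e-05). Compressed replicates 1 to 5 were within a narrow band well under the controls, with replicate 6 lower again. Ddx18 (-0.38) and Ddx56 (-0.37) followed, and Ddx10 was the smallest called change among the members (-0.15, edgeR adjusted p = 0.0233).

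**Figure D3:**
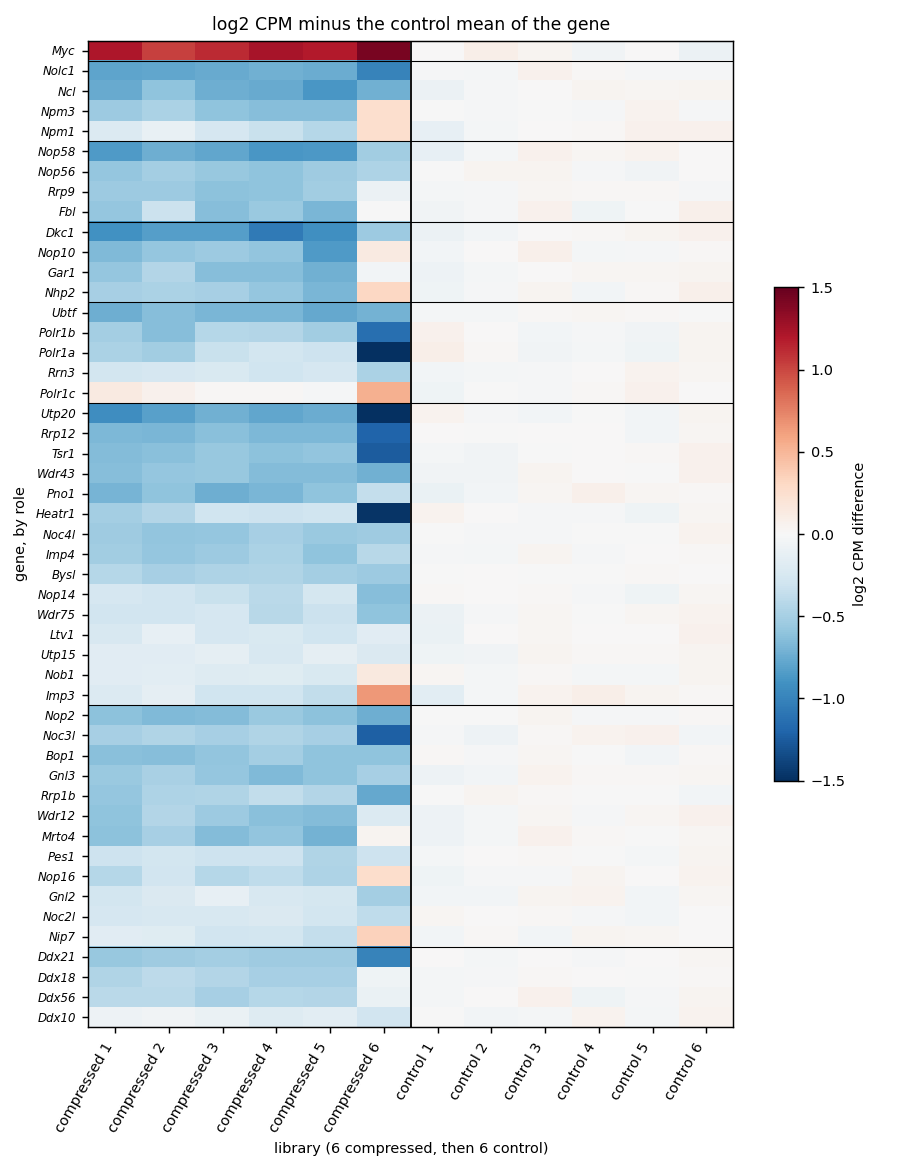
Log2 CPM of each member in each library minus the mean of its controls (color, limited to 1.5 on either side of 0), with the 6 compressed libraries left of the 6 controls and genes ordered by role. Blue cells in the compressed columns are lower than controls; the Myc row is red throughout, and the column of compressed replicate 6 holds the deepest blue cells and, Myc apart, the reddest.

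Across the members the libraries of a group were alike in their typical shift. The median over the 49 genes of log2 CPM minus the control mean was -0.52, -0.48, -0.50, -0.50, -0.52 and -0.47 in compressed replicates 1 to 6, and between -0.03 and 0.03 in the 6 controls. The median in compressed replicate 6 was just outside the range of the other 5, and its genes were more widely spread. It had 38 of the 49 members below the control mean, where the other compressed libraries had 47 or 48, and its median over the box H/ACA proteins was 0.05, where theirs lay between -0.78 and -0.53. It was above the other 5 compressed libraries for 22 members and below them for 19, where 41.4% and 40.6% of all tested genes did the same.

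The place of compressed replicate 6 followed annotated transcript length. Spearman's correlation between length and its distance from the other compressed libraries was -0.80 across the 49 genes, which share a library and are not independent replicates, and -0.62 across 14647 tested genes with a length. For the 17 shortest members (888 to 1947 bases) its median distance was 0.55 on the log2 scale, and 16 of the 17 lay above the other compressed libraries. For the 16 longest (3389 to 9507 bases) the median was -0.39, and 12 of the 16 lay below. The same correlation between length and the fold change itself was -0.50 with all libraries and -0.15 without compressed replicate 6. With the trend on length removed from every library, 45 members were lower and 2 higher, with a median of -0.49. Calls rose over all genes as well in that fit, to 27% lower and 29.8% higher. Measures of RNA quality were not used here.

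**Figure D4:**
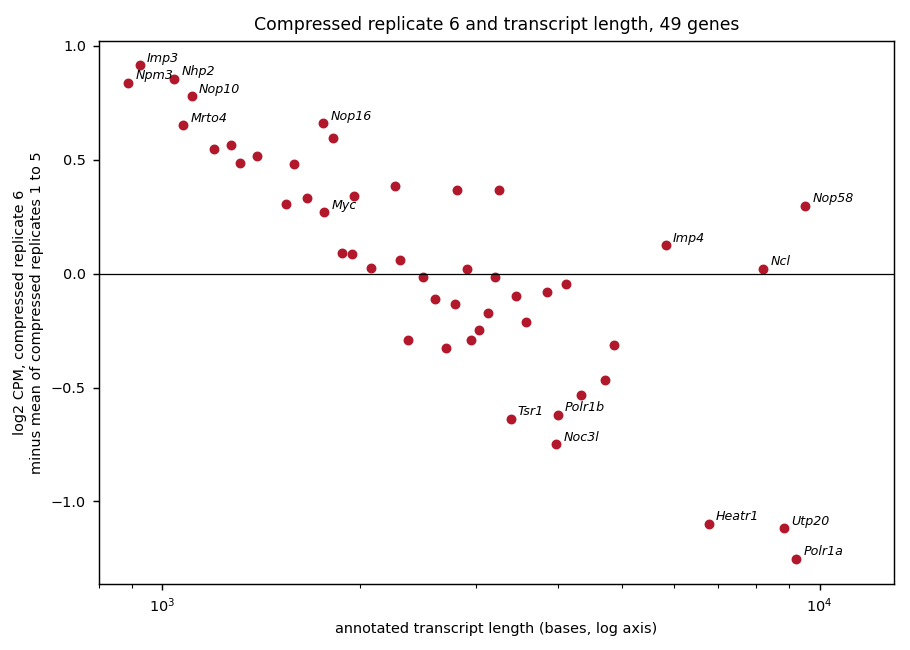
Distance of compressed replicate 6 from the mean of compressed replicates 1 to 5 (vertical axis, log2 CPM) against annotated transcript length (horizontal axis, bases, log scale) for the 49 members. Short genes such as Imp3 and Npm3 lie near 0.9 above 0, the longest such as Polr1a, Utp20 and Heatr1 lie below -1, and Ncl, Nop58 and Imp4 depart from the trend.

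Some members share exonic sequence with a gene on the other strand. In GENCODE M21 the exons of 11 members overlap an opposite-strand gene that held over 12% as many counts as the member, among them Bop1 with Mroh1, Gnl3 with Pbrm1, Dkc1 with Mpp1 and Bysl with Ccnd3. The libraries were directional, but the strand setting of the counting is not given in the sources used here, so reads from such pairs cannot be told apart with certainty.

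Other genes of the same pathway, from lists drawn up for comparison, had smaller median changes than the 49 members. Counts below that use all 12 libraries stand beside 21.9% lower and 24.5% higher over all tested genes. Of 44 further small subunit factors 27 were lower and 2 higher, with a median log2 fold change of -0.31. Nat10, the acetyltransferase of 18S ribosomal RNA, was at -0.75, and Tsr2 (-0.84), Pwp2 (-0.78) and Nol6 (-0.70) were of like size. The higher genes were Riok3 (0.37), an atypical kinase, and Tsr3 (0.37), which modifies 18S RNA. Of 48 further large subunit factors 34 were lower and 3 higher, with a median of -0.33. Wdr18 (-0.72), Ddx51 (-0.65), Ftsj3 (-0.63) and Nol9 (-0.63) were the lowest, and Nop53 (0.37), Nsa2 (0.24) and Zfp622 (0.21) were the higher genes.

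The polymerases that make ribosomal and transfer RNA were lower in part. Of 15 further RNA polymerase I subunits and factors 7 were lower, with a median of -0.21, led by Taf1c (-0.44), Polr2f (-0.42), Polr1f (-0.39) and Polr1g (-0.35). Of 22 RNA polymerase III genes 9 were lower and 1 higher, with the same median to 2 decimals. Gtf3a (-0.53), Gtf3c5 (-0.51) and Polr3b (-0.45) were among the lower genes, and Polr3gl, which takes the place of Polr3g in the enzyme, was higher at 0.49. Without compressed replicate 6, 12 of the 15 and 14 of the 22 were lower, where 32.2% of all tested genes were.

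Enzymes that trim ribosomal RNA included genes that changed more than any nucleolar member. Of 24 exosome and trimming genes 13 were lower and 1 was higher, with a median of -0.32, and 23 were lower without compressed replicate 6, where 32.2% of all tested genes were. Pop1, a subunit of RNase P and RNase MRP, had 22.8, 24.4, 24.9, 24.7, 23.2 and 19.9 CPM in compressed replicates 1 to 6, against 50.3, 49.3, 51.5, 50.4, 52.1 and 50.8 CPM in controls (-1.12, edgeR adjusted p = 2.86e-09). Its level was lower than that of any control in each compressed library. Rpp25 (-1.08) and Rpp40 (-0.81), subunits of the same enzymes, and Exosc2 (-0.88) were lower too, although Rpp25 rests on 67 counts over the compressed libraries and 160 over the controls. Mphosph6, an exosome cofactor, was higher at 0.41.

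Genes known as MYC targets outside the nucleolus were lower more often than higher, 15 (60%) against 4 (16%) of 25. Over all tested genes 21.9% were lower and 24.5% higher. The median of the 25 targets was -0.41. The lowest were for nucleotide and one-carbon synthesis: Gart (-1.05), Cad (-0.86), Ppat (-0.83) and Shmt2 (-0.75). The 4 higher genes were Odc1 (0.91), the first enzyme of polyamine synthesis, Ldha (0.53) and Hk2 (0.29) of glycolysis, and Ccnd2 (0.48), a cyclin. Odc1 had 2221, 2195, 2189.9, 2292, 2469 and 1891 CPM in compressed replicates 1 to 6, against 1168, 1212, 1188, 1082, 1153 and 1237 CPM in controls, without overlap (edgeR adjusted p = 4.82e-08).

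Genes known to be repressed by MYC were higher in 5 of 5 tested cases, with a median of 0.97, beside 24.5% of all tested genes. They were Gadd45a (1.67), a growth arrest gene, Ndrg1 (1.54), Cdkn1a (0.97) and Cdkn1b (0.44), inhibitors of cyclin-dependent kinases, and Ndrg2 (0.49). Cdkn1a had 671, 625.1, 636, 643, 613 and 781 CPM in compressed macrophages, against 339.8, 351, 323, 331, 344 and 341 CPM in controls. Myc and the genes it is known to repress were thus higher in the same libraries. Of 37 DNA replication genes 36 were lower, with a median of -0.95, beside 21.9% of all tested genes.

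Few ribosomal protein genes were called. Of 78 cytosolic ribosomal protein genes 6 (7.69%) were higher, beside 24.5% of all tested genes, and 0 lower by edgeR, with a median of 0.24. At an unadjusted edgeR p under 0.05 there were 19 higher and 0 lower, and the 24.5% does not apply to that cutoff. DESeq2 also called 6 higher and 0 lower at an adjusted p of 0.05, beside 18.2% and 16.7% of all genes it tested. Fau (0.44), Rpl5 (0.32), Rpl17 (0.31) and Rpl3 (0.28) were among the 6. These are short transcripts, and without compressed replicate 6 the median was 0.07 and 36 were called higher, where 33.8% of all tested genes were. Many have processed pseudogenes, so their levels are uncertain. Among 11 noncoding host genes of snoRNAs, 1 was higher (Snhg17, 0.15) and 1 lower (Snhg5, -0.35), with a median of 0.09. Each was 9.09% of the list, beside 24.5% higher and 21.9% lower over all tested genes. Without compressed replicate 6 there were 1 higher and 5 lower, where 33.8% and 32.2% of all tested genes were.

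**Figure D5:**
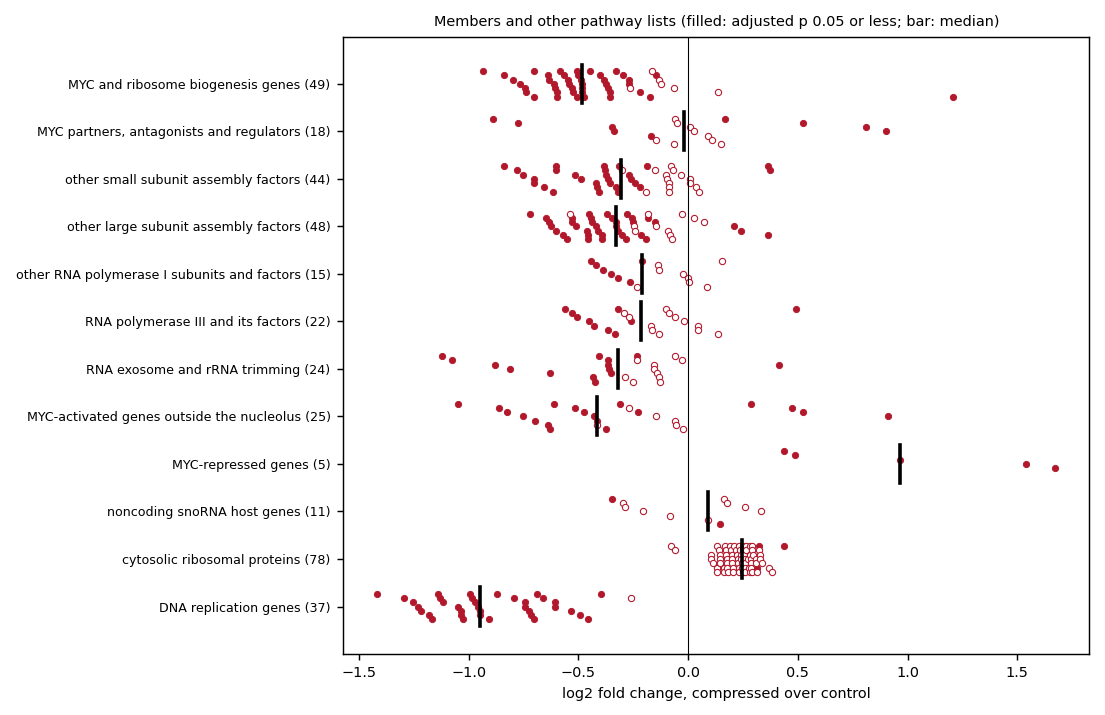
Log2 fold change (horizontal axis, compressed over control) of each tested gene in the 49 members and 11 other lists, with the number tested in parentheses, filled points for an adjusted p of 0.05 or less and a black bar for the median. Medians run from -0.95 for DNA replication and -0.48 for the members to 0.24 for ribosomal proteins and 0.97 for MYC-repressed genes.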

How the data were processed

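The authors aligned reads of directional mRNA libraries from 6 compressed and 6 control RAW264.7 samples with STAR 2.7.2, and the submitters' processing notes name GRCm39. The deposited table holds raw counts (whole numbers) of 12 libraries by Ensembl gene. How and on which annotation release reads were counted is not given in the sources used here. Names and transcript lengths came from GENCODE M21 by ID (51948 of 56941 IDs, 99.5% of counts), and no position of a gene was taken from the count table.

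Genes were kept by filterByExpr (minimum count 10), scaled by TMM and tested on condition with edgeR 4.0.16 (quasi-likelihood F test) in R 4.3.3; genes were called where the Benjamini-Hochberg adjusted p did not exceed 0.05 (15001 genes). Standard errors were obtained by dividing the size of the log2 fold change by √F. The 49 members and the lists were chosen with earlier results of these data known, so their directions are not independent evidence. Named genes were Myc, and in each role the largest called changes and the most abundant member; from each other list, up to 4 called genes of largest change and called genes against the majority. A few genes chosen in this way are not reported here. Members named beyond these are given by log2 fold change, some of them with CPM values, an interval or an adjusted p as well. Alternatives were DESeq2 1.42.0, RLE factors, library size alone, no filter, a mean normalized count over 50, a stricter adjusted p of 0.01, a replicate block, removal of the transcript-length trend and leaving out each library. In data simulated for this comparison over 15001 genes, edgeR recovered 13, 33, 46 and 46 of 50 genes changed 1.25-, 1.5-, 2- and 4-fold.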

Additional observations from a re-analysis of the deposited data

Results flagged for a closer look

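Each member's CPM values, the median shift of the members and their share of all counts were examined within each group of 6 libraries, for a highest or lowest library whose gap to its neighbour took up an unusually large part of the group's range. Of 102 groups of values examined, 28 had such a library. Chance gives about 1 in 20 groups, but these groups share the same libraries and are not independent. Compressed replicate 6 was the library in 25 of the 28. It was the highest compressed library at 75.6 CPM for Npm3, 157.4 for Nop58, 73.1 for Rrp9, 55.8 for Gar1, 188.3 for Nhp2, 80.3 for Nop10, 91.0 for Polr1c and 81.9 for Imp3. It was also the highest at 71.8 CPM for Nob1, 61.5 for Pno1, 118.2 for Nop16, 82.8 for Nip7, 82.7 for Mrto4, 133.8 for Ddx18 and 72.9 for Ddx56. It was the lowest compressed library at 181.6 CPM for Nolc1, 51.2 for Polr1a, 32.1 for Polr1b, 69.9 for Rrn3 and 44.5 for Utp20. It was also the lowest at 65.9 CPM for Heatr1, 35.6 for Rrp12, 51.7 for Tsr1, 20.9 for Noc3l and 265.1 for Ddx21.

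The remaining 3 were small departures. Pes1 had 155.1 CPM in compressed replicate 5, where the other compressed libraries had 171 to 176 CPM. Npm3 had 65.8 CPM in control replicate 5, and Noc4l had 80.9 CPM in control replicate 6.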

How the results depend on the processing

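Over 20 alternatives per member, 939 of 980 values kept their direction and side of the threshold, 26 lost a call, 15 gained one and 0 reversed. The lost calls were of 6 genes (Nhp2 under 13 alternatives, Npm3 and Ddx10 under 5 each, Heatr1, Polr1a and Utp15 under 1 each). The number of members called lower ranged from 37 (adjusted p of 0.01) to 47 and from 39 to 47 when 1 library was left out. Over all tested genes 16.2% were lower at an adjusted p of 0.01 and 32.2% without compressed replicate 6. DESeq2 called 43 members lower and 1 higher, beside 16.7% and 18.2% of all genes it tested. The median of the members was -0.55 under library size alone and between -0.54 and -0.46 with 1 library left out. With the transcript-length trend removed 2 members were higher, Myc and Polr1c (0.09, edgeR adjusted p = 0.0269), and 49 ribosomal proteins were higher, against 2 under library size alone. Over all tested genes 29.8% were higher with the trend removed and 20.5% under library size alone. Myc lay between 1.14 and 1.24 under all alternatives run. With replicate number as a block 42 members were lower, beside 20.6% of all tested genes, and the median of the members was -0.51. Same-numbered libraries correlated at -0.12 to 0.04 after removal of group means, and no library matched its own number best, so the numbers were not taken as pairs. At this depth counting error was small for the members, the least covered of which held 6865 counts over the 6 compressed libraries.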
